A study of Homo sapiens with 54 samples.

Results

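The genes of the Polycomb repressive complexes were followed through 18 ATAC-seq peak lists by the length of each gene neighbourhood that lay inside peaks. The 9 genes are BMI1, RNF2, CBX2, EZH2, EZH1, SUZ12, EED, JARID2 and PHF19, out of 19974 protein-coding genes placed on GRCh38. They were chosen by hand as a family, with peak-covered length in these same lists already known, so their differences below are a description and carry no test. ATAC-seq uses a transposase to cut and tag DNA that is accessible in the nucleus. The MDA-MB-231 line derives from a breast cancer without hormone receptors or HER2 amplification, and PC3 from a bone metastasis of prostate cancer. Each line was left untreated (control) or given cisplatin, which forms platinum crosslinks in DNA, and its survivors were taken 1 day or 10 days after the drug was removed. The treated groups therefore hold only cells that outlived the drug, and each group comes from 1 line. There were 3 biological replicates in each of the 6 groups and 1 peak list per replicate, so n = 3 lists per group. Nothing in the labels says whether replicates were separate cultures, so the spread between lists may be partly technical.

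Polycomb proteins keep developmental genes silent by marking histones. Polycomb repressive complex 2 (PRC2) methylates histone H3 through EZH2 or its relative EZH1, held on the scaffold SUZ12 with EED, which reads the same methyl mark; JARID2 and PHF19 are accessory subunits that help bring PRC2 to chromatin. Polycomb repressive complex 1 (PRC1) ubiquitinates histone H2A through the ligase RNF2 (RING1B), to which BMI1 binds as a partner, and canonical PRC1 carries a CBX protein such as CBX2 that binds the mark left by PRC2. BMI1 and EZH2 are well known for high activity in breast and prostate tumours and for repressing the cell cycle inhibitor locus CDKN2A. The data here are about access to the genes that encode these proteins, not about where the proteins bind.

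Promoter sequences of 5 members are shown first because results below give how far peaks cover these start regions. They are the 250 bases before the first annotated start, from RefSeq on GRCh38.p14, which held entries for 8 of the 9 members; CBX2 had none. Each is written 5′ to 3′ on the strand of its gene. Capitals mark matches, in either orientation, to the GC box GGGCGG, the CCAAT box or the E-box CACGTG. BMI1 spans chr10:22320849-22321098 (plus strand), RNF2 chr1:185045308-185045557 (plus), SUZ12 chr17:31936757-31937006 (plus), EED chr11:86244503-86244752 (plus) and EZH2 chr7:148884292-148884541 (minus).
BMI1: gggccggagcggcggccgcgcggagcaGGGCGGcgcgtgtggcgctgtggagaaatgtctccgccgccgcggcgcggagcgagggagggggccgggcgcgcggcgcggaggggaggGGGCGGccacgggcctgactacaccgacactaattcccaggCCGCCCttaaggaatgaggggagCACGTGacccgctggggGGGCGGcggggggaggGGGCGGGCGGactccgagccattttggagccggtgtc
RNF2: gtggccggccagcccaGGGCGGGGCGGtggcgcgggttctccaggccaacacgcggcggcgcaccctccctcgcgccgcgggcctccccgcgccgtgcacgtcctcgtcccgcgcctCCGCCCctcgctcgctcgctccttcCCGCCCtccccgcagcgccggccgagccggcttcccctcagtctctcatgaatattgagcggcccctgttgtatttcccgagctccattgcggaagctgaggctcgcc
SUZ12: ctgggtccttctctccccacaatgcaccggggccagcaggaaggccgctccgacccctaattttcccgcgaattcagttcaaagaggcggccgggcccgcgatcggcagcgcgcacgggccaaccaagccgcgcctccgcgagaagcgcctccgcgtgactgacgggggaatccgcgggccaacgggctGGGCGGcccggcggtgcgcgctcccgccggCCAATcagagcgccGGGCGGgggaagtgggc
EED: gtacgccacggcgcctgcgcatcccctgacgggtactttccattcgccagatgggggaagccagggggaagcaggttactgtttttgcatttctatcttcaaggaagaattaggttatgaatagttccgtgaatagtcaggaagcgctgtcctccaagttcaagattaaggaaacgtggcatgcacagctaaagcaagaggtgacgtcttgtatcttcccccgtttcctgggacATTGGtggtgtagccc
EZH2: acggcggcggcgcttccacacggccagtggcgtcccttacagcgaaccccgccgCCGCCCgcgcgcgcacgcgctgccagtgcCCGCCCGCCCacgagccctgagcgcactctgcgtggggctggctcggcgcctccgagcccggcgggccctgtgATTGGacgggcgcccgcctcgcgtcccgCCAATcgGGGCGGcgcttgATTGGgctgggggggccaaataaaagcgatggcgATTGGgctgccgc

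The BMI1 sequence held 6 GC box matches and 1 E-box match, RNF2 held 4 GC boxes, and EZH2 held 4 GC boxes and 4 CCAAT boxes. SUZ12 held 2 GC boxes and 1 CCAAT box, while EED held a single CCAAT box. Of 35116 windows of the same length before all RefSeq starts, 42.6% held a GC box, 32% a CCAAT box and 6.34% an E-box. The sequences of BMI1 (35 CpG), RNF2 (34), SUZ12 (34) and EZH2 (38) were CpG-rich beside a median of 11 over all windows, and EED, with 11, was not. These matches describe the letters only.

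The covered length of a gene is the number of bases inside peaks in its body and 10 kb on each side, brought to a common total covered length per list and given in kb. The lists held from 82392 to 165535 peaks and covered from 54.36 to 82.3 Mb; their sequencing depth is unknown. In MDA-MB-231 the median peak was 592 and 587 bp wide in control replicates 2 and 3 and 365 bp in control replicate 1, against 333 to 522 bp in the 6 treated lists. The part of peak width and of depth in the differences below was not tested. In bulk cells, fewer cells with a site open and a site less open in every cell cannot be told apart. Of the 4 epithelial markers checked, 3 had a peak within 1 kb of a gene end in every MDA-MB-231 list and all 4 in every PC3 list. For the 4 mesenchymal markers checked the numbers were also 3 and 4. The haematopoietic gene PTPRC and the endothelial genes PECAM1 and TEK had none in any list, while SPI1, CD3E and KDR had one in every list.

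BMI1 showed the largest differences among the 9 genes, lower after cisplatin in both lines and lowest in PC3 at day 10. It lies on chromosome 10p at chr10:22321099-22331706. In MDA-MB-231 its covered length was 6.96, 7.82 and 6.37 kb in the 3 control lists, 4.64, 4.64 and 4.08 kb at day 1, and 4.77, 5.32 and 4.56 kb at day 10. All 6 treated lists lay below all 3 control lists, and the lists of the 2 times overlapped. In PC3 it was 3.70, 3.87 and 4.54 kb in control lists, 1.54, 2.78 and 2.32 kb at day 1, and 0.841, 0.702 and 0.667 kb at day 10. Here the 3 groups did not overlap at all, and the control lists already lay below every MDA-MB-231 control list.

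On the scale log2(length + 500 bp), where the offset understates changes of short lengths, BMI1 differed from control by -0.61 (day 1) and -0.49 (day 10) in MDA-MB-231 (SE 0.14 each, n = 3 lists per group). In PC3 the differences were -0.76 at day 1 and -1.87 at day 10, with the same SE. The day 10 value in PC3 was the fourth lowest of 16816 genes that passed the filter of 500 bp in at least 3 lists. Between the times it differed by -1.11 in PC3 and 0.12 in MDA-MB-231. The change at day 10 was lower in PC3 than in MDA-MB-231 by 1.39 on the log2 scale (SE 0.19), and the change at day 1 by 0.16 (SE 0.19). Of 28 alternative settings per comparison, 14 repeat the value by construction (such as leaving out a list of another group); in the other 14 it stayed below 0, ranging over -1.03 to -0.35 (MDA-MB-231 day 1), -0.93 to -0.29 (MDA-MB-231 day 10), -1.52 to -0.52 (PC3 day 1) and -2.92 to -1.31 (PC3 day 10).

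**Figure D1:**
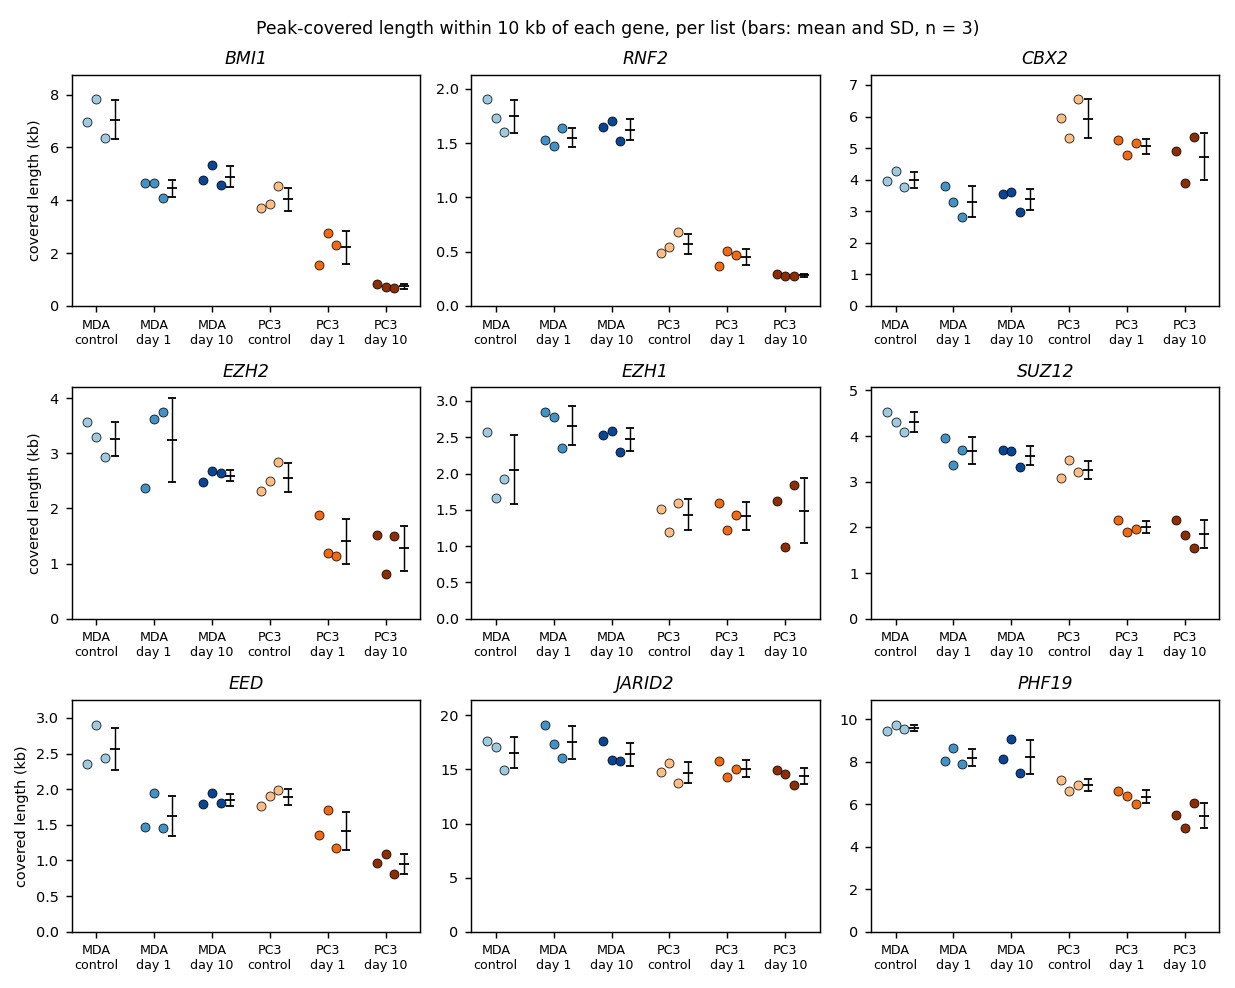
Scaled peak-covered length (kb, linear axis from 0) of each of the 9 genes in each of the 18 lists, by group; points are lists in replicate order, bars the mean and SD of 3 lists. In PC3, BMI1 lies at 3.70 to 4.54 kb in control lists and at 0.667 to 0.841 kb in day 10 lists. In MDA-MB-231 it lies at 6.37 to 7.82 kb in control lists and lower in all treated lists. JARID2 stays between 13.6 and 19.1 kb in all lists.

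The peaks of the BMI1 window lay in 4 sites, leaving aside a site with a peak in 1 PC3 control list only. Distances are from the middle of a site to the first BMI1 start. The first lies at the start of the neighbouring gene COMMD3, 4.63 kb before the BMI1 start, the next spans the BMI1 start, the next lies in the gene body 4.48 kb downstream, and the last lies 19.8 kb downstream, between BMI1 and SPAG6. All 4 sites carried a peak in every MDA-MB-231 list and every PC3 control list. Of the 3 PC3 day 10 lists, none had a peak at the gene body site or at the site 19.8 kb downstream, and 2 had one in the site spanning the BMI1 start. At the COMMD3 start the mean peak length, unscaled, was 1210 bp in PC3 control lists and 583.3 bp at day 10. In MDA-MB-231 it moved little there, with 1531 bp in control lists, 1523 bp at day 1 and 1442 bp at day 10. The MDA-MB-231 means at the gene body site were 1182, 403 and 369.7 bp, in the same order. At the site 19.8 kb downstream they were 1712, 1546 and 1548 bp.

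In the site spanning the BMI1 start the peaks summed to 1485, 2553 and 2038 bp in MDA-MB-231 control lists, 1039, 1015 and 1052 bp at day 1 and 1045, 1018 and 1044 bp at day 10. The treated peaks were thus almost equal in length, while the control peaks were longer and differed more among themselves. In PC3 they summed to 706, 832 and 863 bp in control lists, to 344, 0 and 635 bp at day 1 and to 377, 309 and 0 bp at day 10. The peaks that remained in PC3 at day 10 began 0.133 and 0.21 kb downstream of the start: of the 250 BMI1 bases printed above, none were inside a peak in any of the 3 day 10 lists. At day 1 these bases were free of peaks in replicates 1 and 2, and 233 of them were covered in replicate 3. All 250 were covered in the 9 MDA-MB-231 lists and in 2 PC3 control lists, and 216 in PC3 control replicate 1. The printed E-box and 6 GC boxes were therefore outside peaks in every PC3 day 10 list.

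**Figure D2:**
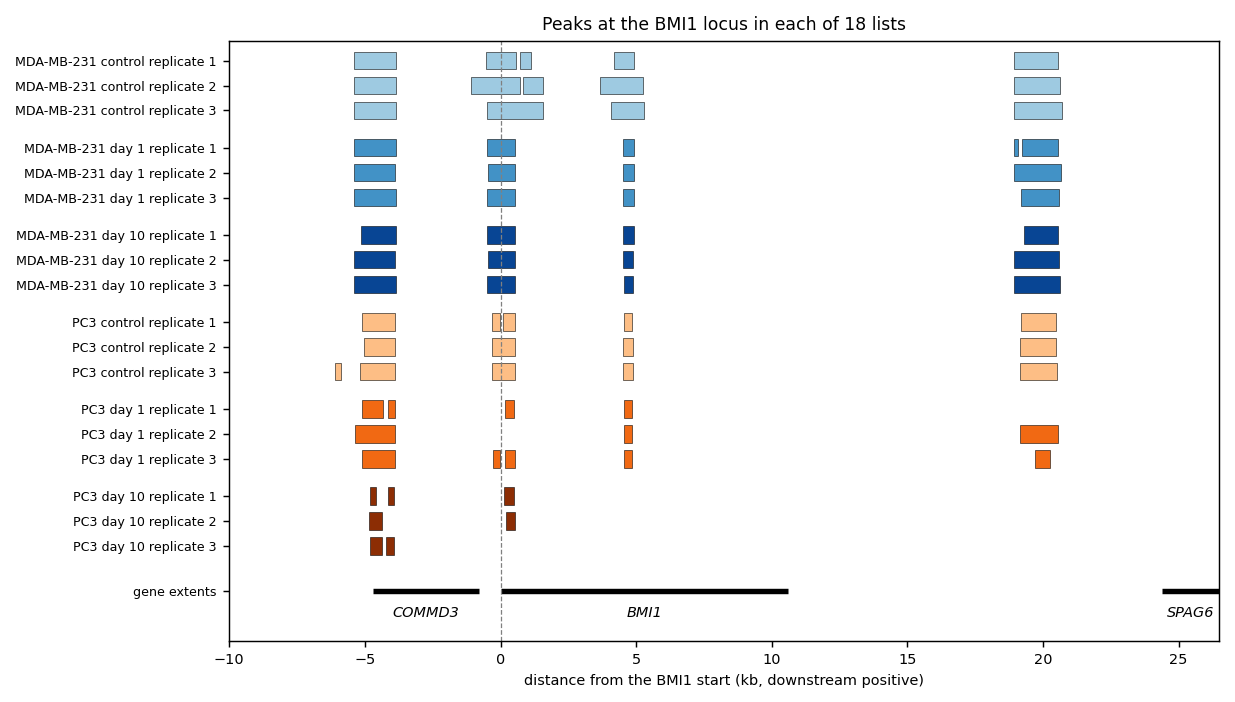
Peaks at the BMI1 locus, 1 row per list; the x axis is the distance from the first BMI1 start in kb, boxes are peaks drawn to scale and black bars the extents of COMMD3, BMI1 and SPAG6. The boxes at 4.48 kb and 19.8 kb are missing from all 3 PC3 day 10 rows and present in every MDA-MB-231 row.

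Neighbours of BMI1 share these peaks and cannot be counted as further evidence. The windows of COMMD3-BMI1 (the readthrough gene), COMMD3 and SPAG6 overlap that of BMI1. In PC3 at day 10 their log2 differences were -1.72, -1.25 and -1.52, beside -1.87 for BMI1. In bins of 50 kb, the bin from the BMI1 start to 50 kb downstream covered 2.334 ± 0.166 kb in PC3 control lists, 1.047 ± 0.455 kb at day 1 and 0.215 ± 0.194 kb at day 10 (SD, n = 3). In the bin from 100 to 150 kb downstream it was 3.375 ± 0.356, 2.881 ± 0.311 and 1.779 ± 0.28 kb. Bins from 100 to 250 kb before the start were at most 0.622 kb in all PC3 groups, and those held as much at day 10 as in control or more.

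**Figure D3:**
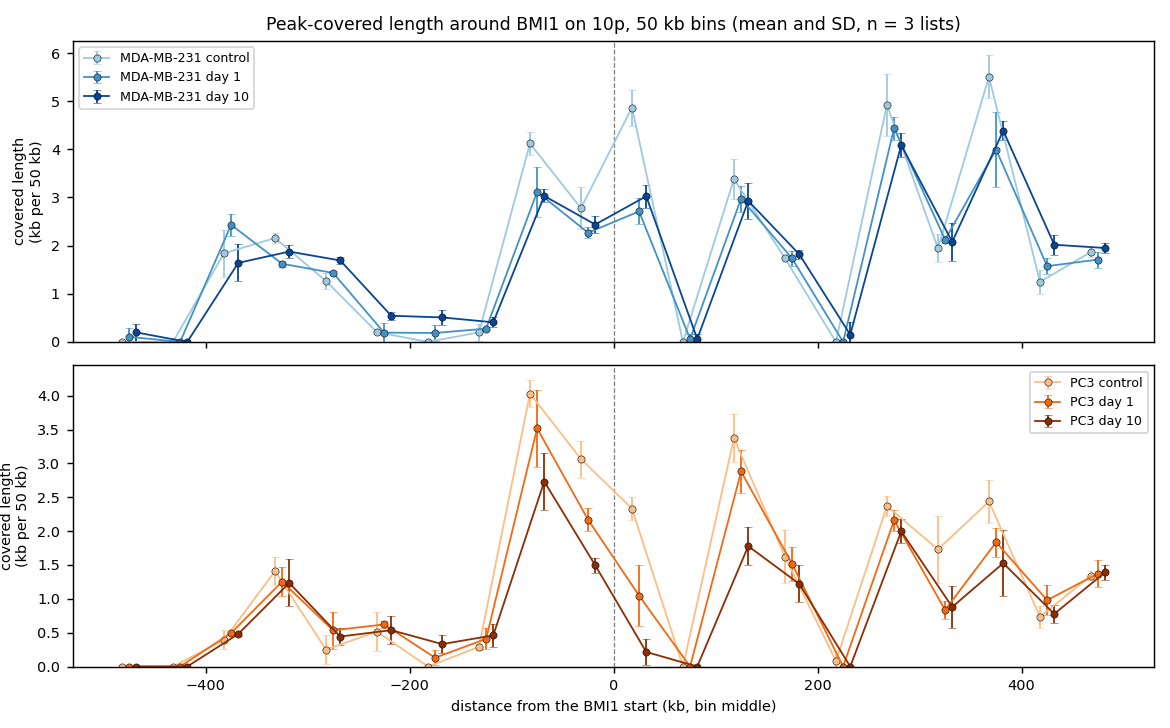
Scaled covered length per 50 kb bin around the BMI1 start on 10p (points: mean of 3 lists, bars: SD, drawn at the bin middle with a small offset per group), MDA-MB-231 above and PC3 below. In PC3 the 3 groups separate most in the bin just downstream of the start (2.334, 1.047 and 0.215 kb), and bins beyond 400 kb downstream are close together.

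The whole arm 10p was set beside BMI1. Its share of all covered length in PC3 was 1.581 ± 0.071% in control, 1.436 ± 0.01% at day 1 and 1.395 ± 0.039% at day 10 (SD, n = 3), with every treated list below every control list. In MDA-MB-231 it was 1.464 ± 0.024%, 1.456 ± 0.01% and 1.488 ± 0.04%, and the groups overlapped. Averaged over both lines, the share differed by -0.076 percentage points at day 1 (two-sided exact permutation test within lines, p = 0.04) and by -0.081 at day 10 (p = 0.11, exact permutation; the smallest possible p is 0.005). Within PC3 alone the differences were -0.144 and -0.185 (exact p = 0.1 each, the smallest that 3 against 3 lists allow). Within MDA-MB-231 they were -0.008 (exact p = 0.8) and 0.024 (exact p = 0.7). The day 1 value did not pass without MDA-MB-231 control replicate 2 (exact p = 0.07) or without any 1 of the 3 PC3 day 1 lists (exact p from 0.115 to 0.12). The median difference of the 150 tested genes on 10p in PC3 at day 10 was -0.32, beside -0.155 over all genes, and BMI1 was the lowest of them. Relative to the median of the arm, BMI1 differed by -1.53 in PC3 at day 10.

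Across the 18 lists, after each line's mean was subtracted, the genes outside the BMI1 window whose log2 covered length followed BMI1 most closely were ZNF548 (Pearson r 0.973), ZMYND11 (0.966), IKBIP (0.965), TRAPPC13 (0.964) and SHLD3 (0.962). This is a ranking of 16816 genes and has no p; lists share their total length and widths. ZMYND11 also lies on 10p, and TRAPPC13 and SHLD3 share a start on chromosome 5. Their log2 differences in PC3 at day 10 ran from -1.37 to -0.50. Among the members, RNF2 followed BMI1 most closely (r 0.934), and 53 genes had a higher r. For EED (0.887) 324 genes did, for SUZ12 (0.806) 1456, for PHF19 (0.775) 1962, for CBX2 (0.652) 4165 and for EZH2 (0.603) 5010. An r of the size of that of CBX2 or EZH2 was thus common among the 16816 genes. JARID2 (0.034) and EZH1 (-0.215) were lower still.

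RNF2, the catalytic partner of BMI1 (chr1:185045558-185102603), separated the lines more than the treatments. Its covered length in MDA-MB-231 was 1.90, 1.73 and 1.61 kb in control lists, 1.53, 1.47 and 1.64 kb at day 1 and 1.65, 1.71 and 1.52 kb at day 10, with overlap between all groups. In PC3 it was 0.492, 0.546 and 0.678 kb in control lists, 0.367, 0.508 and 0.468 kb at day 1 and 0.294, 0.274 and 0.275 kb at day 10. Every PC3 list lay below every MDA-MB-231 list, and the PC3 day 10 lists below the PC3 control lists. The difference from control was -0.13 and -0.08 for MDA-MB-231 and -0.18 and -0.45 for PC3 at days 1 and 10 (SE 0.10). Nearly all of this length was 1 peak at the RNF2 start, unscaled 1579 ± 86 bp in MDA-MB-231 control lists, 530.3 ± 66.4 bp in PC3 control lists and 311.3 ± 16.3 bp in PC3 day 10 lists (SD, n = 3). Of the 250 RNF2 bases printed above, all were covered in 15 lists, and 155, 155 and 168 in the PC3 day 10 lists. Among the 50000 peaks of highest area, RNF2 had no peak in any PC3 list and the difference there was 0, while the MDA-MB-231 day 10 value was above 0 (0.105).

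CBX2, which reads the methyl mark for PRC1 (chr17:79777311-79787983), was the one member with more covered length in untreated PC3 than in untreated MDA-MB-231. It was 3.96, 4.26 and 3.77 kb in MDA-MB-231 control lists and 5.95, 5.31 and 6.55 kb in PC3 control lists, without overlap (log2 difference 0.51, SE 0.11). Its window held 3 flanking sites, 0.58 kb before and 13 and 16.9 kb after the lower gene end, that carried peaks in all PC3 control lists and in no MDA-MB-231 list. The longest peaks also lay outside the gene, at a site 20.3 kb after the lower gene end that reaches past the window. Their unscaled mean was 2551 bp in MDA-MB-231 control lists and 2629 bp in PC3 control lists. Whether these flanking sites belong to CBX2 or to a neighbouring gene was not tested. After cisplatin the CBX2 covered length was 3.81, 3.29 and 2.83 kb at day 1 and 3.54, 3.60 and 2.98 kb at day 10 for MDA-MB-231. PC3 values were 5.25, 4.80 and 5.15 kb at day 1 and 4.90, 3.90 and 5.36 kb at day 10. The 4 differences from control lay between -0.31 and -0.21 (SE 0.11). Without scaling the PC3 day 1 value was above 0 (0.06), and so was the MDA-MB-231 day 10 value among the 50000 peaks of highest area (0.02). With 2 kb flanks CBX2 was -0.46 and -0.67 in MDA-MB-231.

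EZH2, the catalytic subunit of PRC2 in dividing cells (chr7:148807383-148884291), was lower after cisplatin in PC3. Its covered length there was 2.32, 2.51 and 2.85 kb in control lists, 1.88, 1.20 and 1.14 kb at day 1 and 1.53, 0.810 and 1.495 kb at day 10. Neither treated group overlapped the controls, and the 2 times overlapped each other. The differences were -0.70 and -0.81 (SE 0.18). In MDA-MB-231 it was 3.56, 3.29 and 2.93 kb in control lists, 2.37, 3.62 and 3.74 kb at day 1 and 2.48, 2.68 and 2.63 kb at day 10. The day 1 lists spanned the controls (difference -0.02), and the day 10 lists lay below them (-0.28, SE 0.18). With 2 kb flanks the EZH2 day 1 value was -0.48, and among the 50000 peaks of highest area the day 10 value was above 0 (0.13).

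The peak at the EZH2 start summed to 2031, 1848 and 2167 bp in PC3 control lists, 1448, 1390 and 1309 bp at day 1 and 1149, 715 and 1276 bp at day 10, unscaled. It was thus shorter in every treated list, and the 250 printed EZH2 bases were covered in all 18 lists. A site in the gene body 27.8 kb downstream of the start had a peak in all 6 control lists of both lines, in no treated MDA-MB-231 list, and in 1 list each of PC3 day 1 and day 10. A site 79.6 kb downstream, past the gene end, had a peak in the 3 MDA-MB-231 day 1 lists and in no other list. The second annotated EZH2 start, with the bases just before it, had a peak in all MDA-MB-231 lists and all 3 PC3 control lists. It had a peak in only 1 PC3 day 1 list and 1 PC3 day 10 list.

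SUZ12, the scaffold of PRC2 (chr17:31937007-32001038), resembled EZH2 in PC3. It was 3.08, 3.48 and 3.21 kb in control lists, 2.17, 1.91 and 1.96 kb at day 1 and 2.16, 1.84 and 1.56 kb at day 10. The treated lists lay below all controls (differences -0.58 and -0.68, SE 0.09). Among the 50000 peaks of highest area SUZ12 was -1.61 and -2.63. That cut keeps a smaller share of a longer list, so a peak can drop out of it whole. In MDA-MB-231 it was 4.52, 4.30 and 4.09 kb in control lists, 3.963, 3.374 and 3.697 kb at day 1 and 3.70, 3.68 and 3.32 kb at day 10, again without overlap (-0.20 and -0.24). The SUZ12 window also takes in the start of LRRC37B, 70.5 kb downstream of the SUZ12 start. In PC3 a site in the SUZ12 body 37.6 kb downstream had a mean peak length of 957.3 bp in control lists and 525.7 and 505.7 bp at days 1 and 10; in MDA-MB-231 it had a peak in 3 of 9 lists.

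EED, the reader subunit of PRC2 (chr11:86244753-86287615), was lower than control in both lines. In MDA-MB-231 it was 2.36, 2.90 and 2.44 kb in control lists, 1.47, 1.95 and 1.45 kb at day 1 and 1.79, 1.95 and 1.81 kb at day 10. The PC3 values were 1.77, 1.91 and 2.00 kb in control lists, 1.36, 1.71 and 1.18 kb at day 1 and 0.963, 1.09 and 0.806 kb at day 10. No treated list overlapped the controls of its line, and the PC3 day 10 lists also lay below the day 1 lists. The differences were -0.53 and -0.38 for MDA-MB-231 and -0.33 and -0.72 for PC3 (SE 0.12). Among the 50000 peaks of highest area EED was -0.31, -0.11, -0.10 and -0.12, in the same order. A site 47.2 kb downstream of the EED start had a peak in every control list and in no PC3 day 10 list.

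EZH1, the PRC2 enzyme typical of resting cells (chr17:42700275-42745040), did not follow EZH2 in the covered length of its window. In PC3 it was 1.511, 1.195 and 1.593 kb in control lists, 1.6, 1.223 and 1.43 kb at day 1 and 1.628, 0.995 and 1.85 kb at day 10, with full overlap (differences -0.01 and 0.02, SE 0.16). In MDA-MB-231 it was 2.58, 1.66 and 1.92 kb in control lists, 2.84, 2.78 and 2.36 kb at day 1 and 2.535, 2.590 and 2.295 kb at day 10. The differences there were 0.32 and 0.23, and control replicate 1 lay within the treated range. The peak at the EZH1 start, unscaled, was shorter on average after cisplatin. Its means at control, day 1 and day 10 were 1347, 1234 and 1177 bp in MDA-MB-231 and 1026, 1011 and 881.7 bp in PC3. A site past the gene end, 46.2 kb from the start, had 205, 855.7 and 572 bp in MDA-MB-231. In PC3 that site had 0, 249 and 412.7 bp. A site 9.9 kb before the start had 71, 298 and 369 bp in MDA-MB-231 and 283, 368.7 and 402 bp in PC3.

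JARID2 and PHF19 are the accessory subunits. JARID2 (chr6:15246069-15522042), a long gene whose window held from 26 to 43 peaks in a list, ran from 14.9 to 17.6 kb in MDA-MB-231 control lists and from 13.7 to 15.6 kb in PC3 control lists. Treated lists ran from 15.8 to 19.1 kb and from 13.6 to 15.8 kb, overlapping the controls in each comparison. Its 4 differences lay between -0.03 and 0.08 (SE 0.08), and over the alternatives between -0.10 and 0.31. PHF19 (chr9:120855651-120904128) was 9.46, 9.72 and 9.56 kb in MDA-MB-231 control lists, 8.04, 8.64 and 7.89 kb at day 1 and 8.11, 9.04 and 7.46 kb at day 10. The PC3 values were 7.15, 6.63 and 6.91 kb in control lists, 6.63, 6.40 and 6.02 kb at day 1 and 5.48, 4.87 and 6.04 kb at day 10. Of the 250 bases before the second PHF19 start, peaks covered 250, 126 and 250 in PC3 control lists. They covered 13, 129 and 42 at day 1 and 2, 14 and 0 at day 10. In MDA-MB-231 all were covered in control and day 1 lists, and 250, 73 and 135 at day 10. Differences for PHF19 were -0.22 and -0.22 for MDA-MB-231 and -0.11 and -0.31 for PC3 (SE 0.08); the PC3 day 1 value was above 0 without scaling (0.155) and relative to the arm (0.012), where the day 10 value was -0.06.

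Ranking each peak by the authors' peak area within its own list gave a further description. List length itself moves such a percentile, and PC3 lists held from 106577 to 114731 peaks in control and from 133898 to 165535 at day 10, so the values show position within a list and not a change. Each value is for the strongest peak in a site, merged over lists, that spans a gene start. For BMI1 it stood at percentiles 88.1, 80.1 and 81.0 in MDA-MB-231 control lists, at 65.2 to 85.9 at day 1 and at 79.5 to 88.0 at day 10. In PC3 it stood at 48.5, 65.7 and 79.6 in control lists, at 12.5 and 23.2 in the 2 day 1 lists with a peak in the site, and at 31.8 and 4.67 in the 2 day 10 lists with one. All of these treated PC3 peaks began downstream of the BMI1 start, as did the peak at 48.5 in PC3 control replicate 1. Over the 250 bases before the start there was a peak in 1 PC3 day 1 list (5.99), which ended short of the start, and in no day 10 list. The RNF2 site stood at 89.9 to 94.4 in all MDA-MB-231 lists, at 29.8 to 48.8 in PC3 control lists and at 4.45 to 19.8 at PC3 day 10. SUZ12 stood at 64.0 to 71.5 in PC3 control lists, 46.3 to 50.7 at day 1 and 25.0 to 47.6 at day 10, and at 83.4 to 91.7 in MDA-MB-231. EZH2 stood at 93.2 to 95.2 in PC3 control lists and 70.0 to 88.3 in treated ones. EED kept a narrower band, from 87.6 to 92.7 in PC3 and from 96.0 to 97.7 in MDA-MB-231, and the site at the first JARID2 start stayed at 96.2 or higher in every list.

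**Figure D4:**
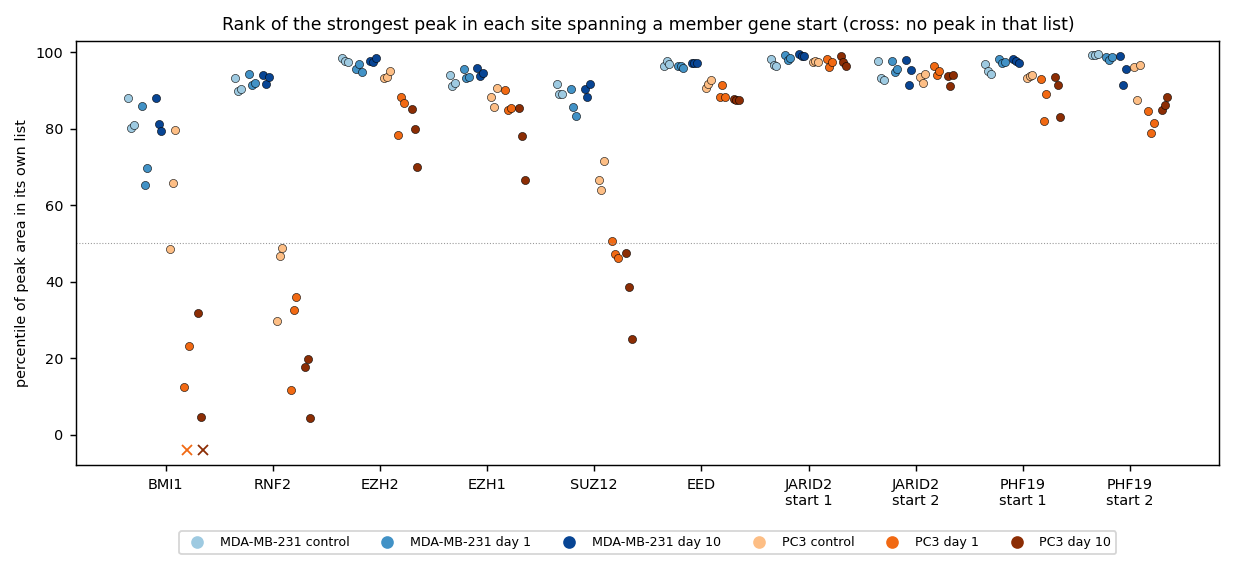
Percentile of peak area within its own list (y axis) for the strongest peak in each site, merged over lists, that spans an annotated start of 8 members, 1 point per list, coloured by group; a cross below 0 marks a list with no peak in the site. BMI1, RNF2 and SUZ12 spread widely in PC3 (BMI1 from 4.67 to 79.6, with 2 crosses), whereas JARID2 points all lie at 91.1 or above.

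The windows of the 9 genes held 112 regions, a region being peaks merged over all 18 lists. A region was called gained where all 3 treated lists had a peak over it and no control list did, and lost in the opposite case. In MDA-MB-231, 3 regions were gained and 1 lost at day 1 (2.68% and 0.893%), where 5.06% and 0.436% of all 232138 regions were. At day 10, 3 were gained and 1 lost, beside 6.50% and 0.582% of all regions. In PC3, 5 were gained and 0 lost at day 1, beside 3.51% and 0.331%, and 8 were gained and 5 lost at day 10 (7.14% and 4.46%), beside 8.58% and 1.07%.

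The 5 regions lost in PC3 at day 10 were 2 of BMI1 (chr10:22324779-22326373 and chr10:22340018-22341811), 1 of EED (chr11:86291662-86292273) and 2 inside JARID2. All 8 regions gained there lay in the JARID2 window. The region lost in MDA-MB-231 was the same at both times, the EZH2 body site at chr7:148856210-148856738. Of the 62 JARID2 regions, 9 had a peak in all 18 lists, 10 in only 1 or 2 lists, 10 only in MDA-MB-231 lists and 17 only in PC3 lists. Of all regions, 19.8%, 22.3%, 17.5% and 35.5% did. In PC3, 4 of its regions were gained at both times, at 16.5, 53.8, 183 and 282 kb from the start, and each of them also had peaks in MDA-MB-231 control lists.

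As a group the 9 genes had a median difference of -0.20 (day 1) and -0.22 (day 10) in MDA-MB-231, beside -0.09 and -0.11 over all 16816 tested genes. In PC3 the medians were -0.21 and -0.45, beside -0.074 and -0.155. All 9 passed the filter.

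All 3 treated lists lay below all 3 control lists for 4 and 6 of the 9 genes in MDA-MB-231, beside 30.2% and 32.3% of all genes, and for 6 and 6 in PC3, beside 26.1% and 38.0%. Since the genes were picked on covered length, nothing is read from these counts. The balance of calls over all genes depends on the scaling. Among the genes that limma called at a Benjamini-Hochberg adjusted p under 0.05, the share that was higher was 41.2% and 39.7% for MDA-MB-231 and 45.4% and 26.2% for PC3. Without scaling it was 85.6%, 55.0%, 98.7% and 70.4%, and with median-of-ratios scaling 70.1%, 69.3%, 78.5% and 57.6%. Without scaling the median of all genes was 0.04, -0.11, 0.16 and 0.05, and with median-of-ratios scaling it was within 0.01 of 0.

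**Figure D5:**
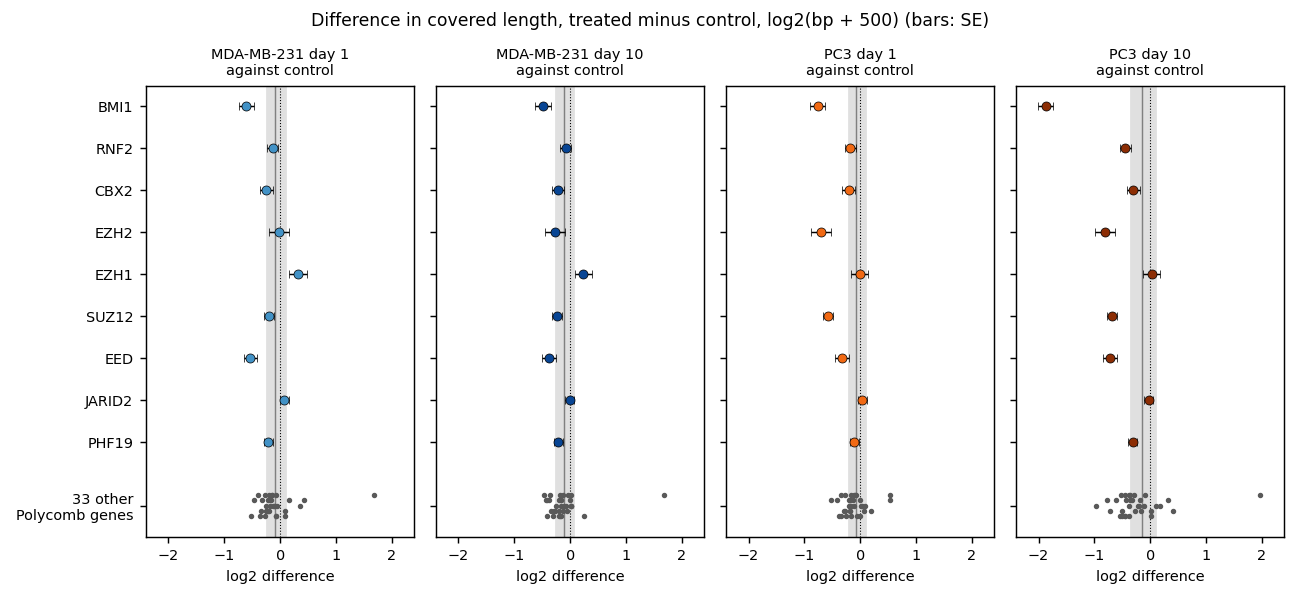
Log2 difference in covered length, treated minus control (x axis, log2(bp + 500) scale), of the 9 genes with SE bars and of 33 other Polycomb genes as dots, in 4 comparisons; the grey band spans the middle quartiles of all genes and the grey line their median. BMI1 lies outside the band in every panel and at -1.87 in PC3 day 10, whereas JARID2 lies within it in every panel.

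Other genes of the Polycomb system, 40 subunits, cofactors and opposing enzymes listed by function, were tested with limma over all genes; 33 passed the filter. In MDA-MB-231, 2 rose and 7 fell at day 1, where 10.9% of all genes rose and 15.5% fell, and 1 rose and 8 fell at day 10, beside 11.0% and 16.7%. In PC3, 0 rose and 6 fell at day 1 (12 had an unadjusted p under 0.05), beside 6.02% and 7.24% of all genes, and 2 rose and 19 fell at day 10, beside 11.8% and 33.1%. Their median differences were -0.18, -0.17, -0.17 and -0.36, each below the medians of all genes given above. With median-of-ratios scaling the numbers that fell were 1, 2, 2 and 11, and without scaling 1, 4, 0 and 3. The number called thus depends on the scaling, and the named genes below are those with the smallest p.

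In PC3 at day 10 the largest fall among the named genes was in SCML2, a sex comb protein of PRC1, from 1.71, 2.38 and 1.79 kb in control lists to 0.707, 0.912 and 0.620 kb (-0.98, SE 0.12, limma adjusted p = 1.53e-05; -1.92 among the 50000 peaks of highest area). KDM6A, a demethylase that removes the PRC2 mark, fell by 0.78 (SE 0.13, limma adjusted p = 0.000207), and its lists of 4.55, 4.00 and 2.90 kb lay below controls of 6.71, 7.39 and 6.37 kb. KDM2B, which brings a variant PRC1 to CpG islands, fell by 0.54 (limma adjusted p = 0.000129), and MGA, a DNA-binding subunit of another variant PRC1, by 0.51 (limma adjusted p = 0.000139). KDM2B and MGA were not called without scaling (limma adjusted p = 0.0653 and 0.146). YAF2, a variant PRC1 subunit, rose from 1.84, 1.59 and 1.98 kb to 2.61, 2.83 and 2.27 kb (0.41, SE 0.11, limma adjusted p = 0.00577), but not among the 50000 peaks of highest area (adjusted p = 0.633).

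AUTS2, a very long gene whose product turns variant PRC1 towards activation, rose by 1.96 in PC3 at day 10 (SE 0.44, limma adjusted p = 0.00215), from 4.18, 2.16 and 1.15 kb to 11.3, 8.03 and 11.5 kb. In MDA-MB-231 it rose by 1.68 at each time (limma adjusted p = 0.011 and 0.00987), from 1.78, 0 and 0.525 kb in control lists to between 2.32 and 3.31 kb. Without MDA-MB-231 control replicate 2, the list at 0, neither MDA-MB-231 call passed (1.14 each, limma adjusted p = 0.0652 and 0.0598). Among the 50000 peaks of highest area the AUTS2 difference in MDA-MB-231 was 0 at day 1 and 1.15 at day 10. In PC3 at day 10 it was 1.59 there. ASXL1, a partner of the deubiquitinase BAP1, rose by 0.36 at day 1 in MDA-MB-231 (limma adjusted p = 0.0128); the difference was -0.17 when only 2 kb on each side was counted (adjusted p = 0.201).

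Day 1 falls included E2F6, a DNA-binding subunit of variant PRC1, in both lines (-0.53 in MDA-MB-231, limma adjusted p = 0.000728; -0.37 in PC3, adjusted p = 0.0173). KDM6A also fell in both (-0.47, limma adjusted p = 0.014; -0.42, adjusted p = 0.0386). Further falls at day 1 were PHC2 (-0.27) in MDA-MB-231 and SCMH1 (-0.53) and PHC3 (-0.35) in PC3, all of PRC1. At day 10 in MDA-MB-231 they included BCORL1 (-0.41), CBX6 (-0.47) and MGA (-0.29). Calls were lost in MDA-MB-231 too: KDM6A without scaling and with median-of-ratios scaling (limma adjusted p = 0.104 and 0.0646), PHC2 likewise (0.596 and 0.176) and without control replicate 2 (0.067). At day 10 there, MGA was lost under both scalings (limma adjusted p = 0.145 and 0.106) and CBX6 with median-of-ratios scaling (0.0543). E2F6 was not called in either line among the 50000 peaks of highest area (limma adjusted p = 0.738 and 0.812). Of the day 1 falls named here in PC3, none was called without scaling, and only SCMH1 and E2F6 were called with median-of-ratios scaling.

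The change from control was also compared between the lines. At day 10 it differed for 5 of 33 other Polycomb genes (16.4% of all genes differed), being lower in PC3 for SCML2, AEBP2, KDM6A and PHC3 and higher for YAF2. At day 1 it differed for SCMH1 alone (5.3% of all genes). Between the untreated lines, 6 of the 33 were called higher and 19 lower in PC3, against 21.0% and 44.3% of all genes.

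Of the 40 genes, 6 were listed at 0 in all 18 lists: RING1, PCGF2, RYBP, PHF1, EZHIP and EPOP. RING1 and PHF1 lie in a stretch of chromosome 6 of 812.5 kb (chr6:32668636-33481088) with 33 protein-coding genes and no peak in any list. PCGF2 and EPOP lie in another, of 264.8 kb on chromosome 17 with 8 genes, RYBP in one of 162.3 kb on chromosome 3 and EZHIP in one of 52.2 kb on X. RING1 and RYBP are widely expressed PRC1 subunits, so a 0 here says only that these stretches carry no listed peak; why was not tested. ASXL3 had too little covered length to be tested, at most 750.3 bp.

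CDKN2A and CDKN2B, the inhibitor genes that BMI1 represses in many cells, were listed at 0 in all 9 MDA-MB-231 lists. They lie in a stretch of 4157 kb on chromosome 9 with no peak in that line, which is known to lack the CDKN2A locus. In PC3 CDKN2A covered 2.76, 2.41 and 3.23 kb in control lists, 2.39, 2.77 and 1.97 kb at day 1 and 2.14, 1.21 and 1.42 kb at day 10. It fell at day 10 (-0.68, SE 0.14, limma adjusted p = 0.00145), as did CDKN2B (-0.58, SE 0.12, limma adjusted p = 0.00143), where 33.1% of all genes fell. The 10 kb windows of CDKN2A and CDKN2B overlap, so the falls share peaks. At day 1 the differences were -0.20 and -0.23 (limma adjusted p = 0.353 and 0.205).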

How the data were processed

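ATAC-seq peak lists of 18 biological replicates (54 sequenced samples, 3 experimental replicates each, merged in a way that the labels do not describe) were read. Per the submitters' processing notes, tools included Bowtie2 2.3.5.1, SAMtools 1.6, Picard and Genrich 0.6.2, on GRCh38. The deposited score in column 7 is the peak area the authors' peak caller gave, used only for ranks within a list. Lists carry no counts, so depth is unknown and no interval for it was made.

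Covered length per protein-coding gene (RefSeq GRCh38.p14, body and 10 kb flanks) was scaled to a common total. Genes reaching 500 bp in 3 or more lists entered log2(bp + 500) and limma 3.58.1 (R 4.3.3; trend, 6 groups in 1 model, Benjamini-Hochberg adjustment, threshold 0.05). The script was tested on simulated data. The members, gene lists and tests were chosen with earlier results of these data known, and no test of a member is reported. Named genes are the 9 members, up to 4 other Polycomb genes per comparison and direction with the smallest p among those called, genes overlapping the BMI1 window, the 5 genes most like BMI1, CDKN2A and CDKN2B. Some genes that this rule or the marker lists hold are not reported here. The arm share of 10p used an exact permutation test within lines. Alternatives were the 50000 peaks of highest area, the upper 50% by area, no scaling, median-of-ratios scaling, offsets of 100 and 1000 bp, no filter, 2 kb flanks, values relative to the chromosome arm, a replicate block and leaving out each list.

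Same-numbered lists were not paired in the values above, apart from the replicate block, and the labels do not state a pairing. Their deviations from the group mean correlated at 0.389, 0.235 and 0.193 for MDA-MB-231 day 1 and control. For MDA-MB-231 day 10 and control these correlations were 0.33, 0.133 and 0.056, and for PC3 they ran from -0.044 to 0.253. With the replicate block, 2 other Polycomb genes rose and 8 fell at MDA-MB-231 day 1, beside 2 and 7 without it.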

Additional observations from a re-analysis of the deposited data

Results flagged for a closer look

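The change from control differed between the lines for 6 other Polycomb genes (limma contrast of the 2 changes, adjusted over all genes; PC3 change minus MDA-MB-231 change on the log2 scale). At day 1 this held for SCMH1, a PRC1 subunit (-0.68, SE 0.19, adjusted p = 0.0436). At day 10 it held for SCML2 (-0.98, adjusted p = 0.000794), AEBP2, a PRC2 accessory subunit (-0.75, adjusted p = 0.00425), KDM6A (-0.62, adjusted p = 0.0269), PHC3, a PRC1 subunit (-0.53, adjusted p = 0.0145), and YAF2 (0.47, adjusted p = 0.0469). These are 1 of 33 tested genes at day 1, where 5.3% of all genes differed, and 5 of 33 at day 10, beside 16.4%. Nothing is read from these counts. YAF2 differed by 0.0095 among the 50000 peaks of highest area (limma adjusted p = 0.982), and without scaling SCMH1, PHC3 and KDM6A did not pass (limma adjusted p = 0.235, 0.281 and 0.165). Among the 50000 peaks SCMH1, PHC3, KDM6A and AEBP2 did not pass either (limma adjusted p = 0.419, 0.303, 0.211 and 0.0558). Without MDA-MB-231 control replicate 2, SCMH1, KDM6A and YAF2 did not pass (limma adjusted p = 0.0835, 0.0522 and 0.0838). Relative to the chromosome arm, YAF2 did not pass (limma adjusted p = 0.0815).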

How the results depend on the processing

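With 3 lists per group and no read depth, peak length also moves with how wide each list's peaks are. BMI1, SUZ12 and EED stayed below control in all 4 comparisons, and EZH2 did in PC3, in the 14 of 28 alternatives that do not repeat the value by construction; their sizes moved, as given beside each gene. The counts of other Polycomb genes called did move, and the cause was not tested. For MDA-MB-231 day 1 (2 higher, 7 lower), the 50000 peaks of highest area gave 0 and 3, the upper 50% by area 1 higher, 2 kb flanks 1 and 12, no scaling and median-of-ratios scaling 1 lower each, and values relative to the chromosome arm 4 lower. For MDA-MB-231 day 10 (1 and 8), the 50000 peaks and the upper 50% each gave 2 lower, no scaling 4, median-of-ratios scaling 2 higher and 2 lower, and the arm 1 lower. For PC3 day 1 (0 and 6), the 50000 peaks and the upper 50% each gave 1 lower, no scaling 1 higher and 0 lower, and median-of-ratios scaling 2 lower. For PC3 day 10 (2 and 19), the 50000 peaks and the upper 50% each gave 1 higher, no scaling 3 lower, median-of-ratios scaling 4 higher and 11 lower, and the arm 10 lower. Between untreated lines, 6 higher became 3, 2 and 3 with the 50000 peaks, the upper 50% and the replicate block. The single line difference at day 1 became 0 with the 50000 peaks, the upper 50% and no scaling. ASXL1 at MDA-MB-231 day 1 reversed to -0.17 with 2 kb flanks.

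Leaving out each list in turn, the number higher and lower ran over 0 to 3 and 1 to 9 (MDA-MB-231 day 1, 1 lower without control replicate 1 or day 1 replicate 3), 0 to 1 and 3 to 9 (MDA-MB-231 day 10, 3 lower without day 10 replicate 3), 0 to 0 and 0 to 6 (PC3 day 1, 0 lower without control replicate 3), and 2 to 3 and 16 to 20 (PC3 day 10). Between untreated lines it ran over 4 to 6 and 17 to 20, and line differences over 0 to 1 at day 1 and 3 to 5 at day 10. The 10p difference ran from -0.0966 to -0.0642 points at day 1 (exact permutation p from 0.025 to 0.12) and from -0.101 to -0.0688 at day 10 (exact permutation p from 0.055 to 0.17). Each group holds the same replicate numbers, so a replicate block leaves every difference unchanged by construction and tells nothing about signs. The block can move only the SE and the p. For MDA-MB-231 day 10, PC3 day 1 and PC3 day 10 the block gave 9, 6 and 21 lower beside 8, 6 and 19.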
